A study of Mus musculus with 16 samples.

Results

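The 9 genes described here are the mesenchymal genes Fn1, Vim, Cdh2, Cdh11 and Cd44 and the transcription factor genes Zeb1, Zeb2, Snai2 and Twist1, which regulate epithelial to mesenchymal transition (EMT). They were chosen by name, with earlier results of these data known, out of 19057 gene symbols on the array. All 29 probes that the platform annotation gives to these symbols were followed, of 45281 probes on the array. Of the 29 probes, 13 were above background (detection p under 0.01) on at least 4 of the 16 arrays and entered the tests, together with 15593 probes in all.

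RNA was measured on Illumina Mouse WG-6 v2 BeadChips in 16 cultures of mouse embryonic stem (ES) cells that had been directed towards definitive endoderm (DE), the germ layer that gives rise to gut, liver and pancreas. The design had 4 groups of 4 cultures: wild-type (Lhx1+/+) and null (Lhx1∆/∆) cultures at day 5, and the same genotypes at day 6. The ∆ allele lacks the loxP-flanked exons of Lhx1, a LIM homeobox transcription factor gene. Lines of both genotypes were derived in 2i/LIF medium from blastocysts of Lhx1∆/+ intercrosses, and all cultures were grown at low density without LIF and then treated with ActivinA and EGF, so ActivinA is shared by every group and no untreated culture was used here. The methods describe independent lines as the replicates, but the labels do not say which line a culture came from or whether a line was used at both days, so the p-values below measure the spread between these cultures. Arrays of whole cultures cannot tell fewer cells that express a gene from less RNA per cell.

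Lhx1 transcripts were read in every culture by both Lhx1 probes, and where these probes lie with respect to the deletion is unknown here, so their readings cannot test the genotypes. With probe ILMN_1225672 the wild-type cultures had log2 intensities of 14.34 to 14.88. Of the null cultures, day 5 replicate 4 (8.15) and day 6 replicate 2 (9.76) stood apart from the remaining 6 (13.10 to 14.49), and results that rest on these 2 cultures are given with and without them. Null day 6 replicates 3 and 4 are numbered so in their titles but are both described as replicate 2 in the labels, and the titles were used. Each array had between 10734 and 15453 probes above background. The DE markers Sox17 and Hhex were above background in all 16 cultures. The 8 DE markers measured were lower on average in null cultures at both days, and the Hhex probe passed the test at both (log2 fold change -2.40 and -2.30). The brightest Sox17 probe passed at day 5 alone (-2.43, adjusted p = 0.0498 in limma). Of all tested probes, 0.410% passed at day 5 and 1.24% at day 6.

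In EMT, epithelial cells take apart their cell-cell junctions, exchange keratin for vimentin filaments and begin to move through the matrix. Transcription factors of the Snail, Zeb and Twist families drive the change, in part by binding E-box sequences and repressing epithelial genes such as Cdh1. The mouse embryo uses EMT when cells pass through the primitive streak during gastrulation, and cells that become DE pass through the streak before they take up epithelial form in the gut endoderm.

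At day 6, probes of Fn1, Vim, Zeb2, Cdh11 and Cd44 were higher in null than in wild-type cultures. The genes were chosen with earlier results of these data known, so the shares over all probes below describe them and do not test them. Of the 13 tested probes, 8 passed at a Benjamini-Hochberg adjusted p under 0.05 in limma, all higher in null cultures, where 1.24% of all 15593 probes passed in either direction and 0.494% passed as higher. At day 5, 0 of the 13 passed, where 0.410% of all probes did, and the lowest adjusted p was 0.0531, for Fn1. All 13 differences were above 0 at both days, as were 53.2% of those of all probes at day 5 and 52.2% at day 6. Their median log2 fold change was 1.23 at day 5 (range 0.73 to 1.54) and 1.96 at day 6 (range 1.01 to 3.33), and the median over all probes was 0.02 at both days. The filter takes a part in these counts. Of the 13 probes, 4 (1 each of Fn1, Cdh11, Snai2 and Cd44) were above background in null cultures alone. The other tested Cdh11 probe was above background in 1 wild-type culture and reached the filter through null cultures. Such probes entered the test only through the group in which they were high. Before adjustment, 6 probes were under 0.05 and higher in null cultures at day 5 and 12 at day 6 (4.35% and 5.61% of all probes). Every null culture lay above every wild-type culture for 3 of the 13 probes at day 5 and 10 at day 6, against 2.05% and 3.48% of all probes. Without null day 6 replicates 3 and 4, whose labels conflict, 0 of the 13 passed at day 6 (adjusted p of 0.0891 to 0.516, with 9 of 15593 probes passing in all), whereas the log2 fold changes were 1.04 to 3.66. Without wild-type day 6 replicate 4, 1 of the 13 passed, the Fn1 probe ILMN_2646618, and 40 of all 15593 probes did.

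**Figure D1:**
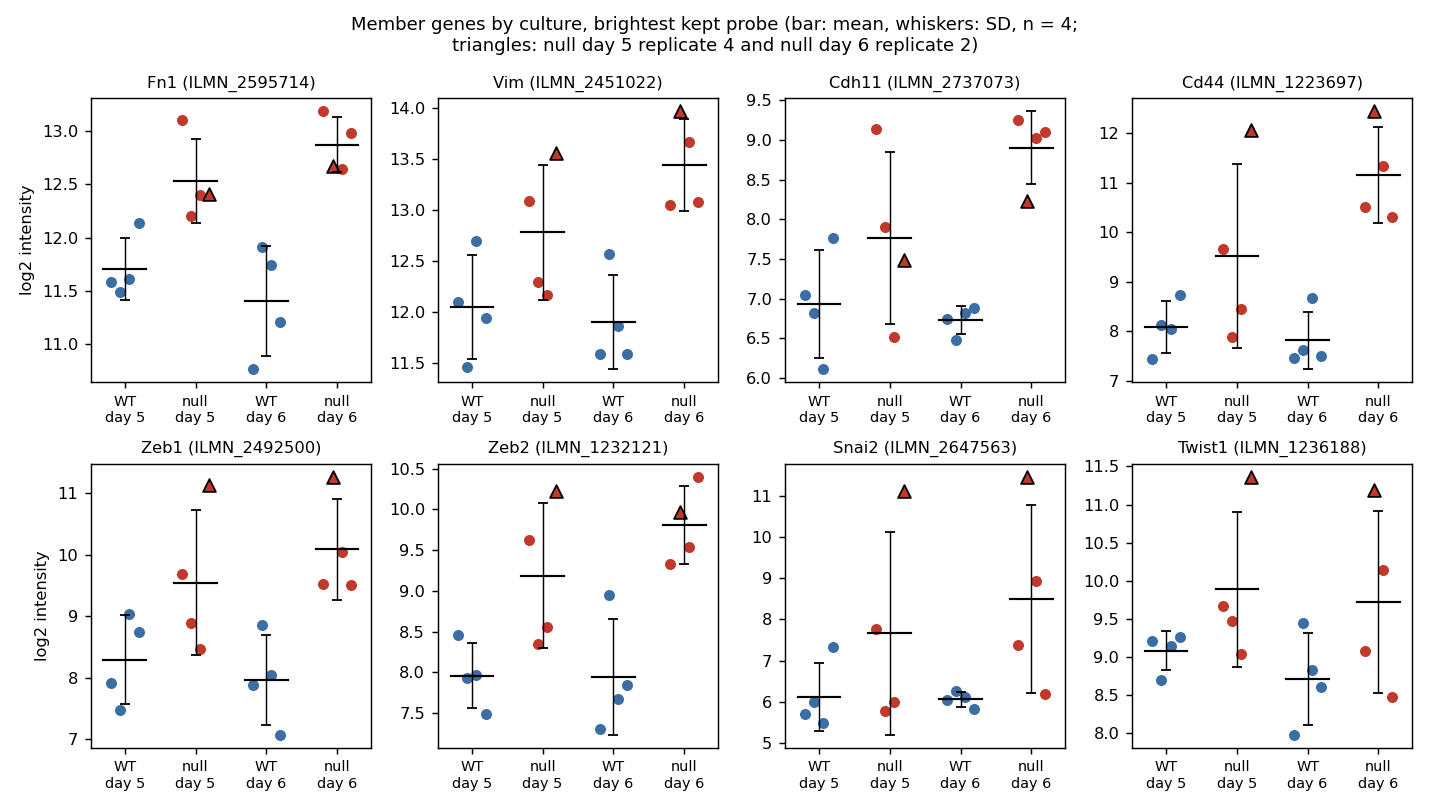
Log2 intensity (vertical axes, a separate scale for each gene) of the brightest tested probe of 8 genes in each culture, by genotype and day, with the mean as a bar and the SD as whiskers (n = 4). Triangles mark null day 5 replicate 4 and null day 6 replicate 2, which were the 2 highest of all 16 cultures for Cd44, Zeb1, Snai2 and Twist1 but not for Fn1, Zeb2 or Cdh11.

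**Figure D2:**
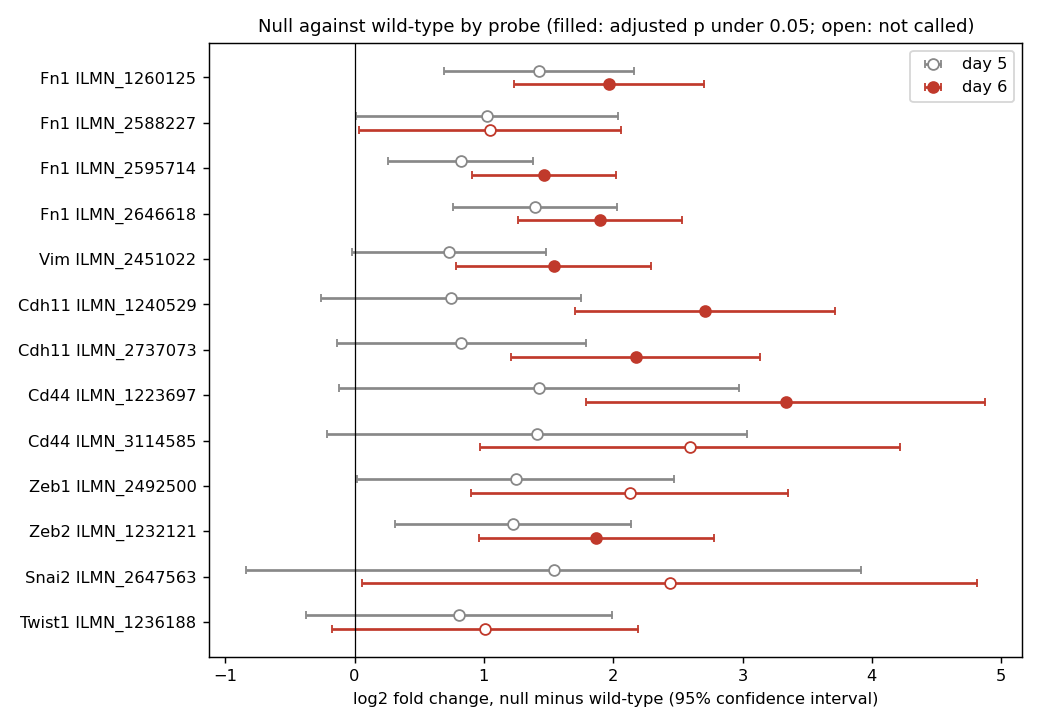
Log2 fold change of null over wild-type cultures (horizontal axis, with 95% confidence intervals) for each of the 13 tested probes at day 5 (grey) and day 6 (red). Filled points passed at an adjusted p under 0.05 and open points did not: all grey points are open, and 8 of the 13 red points are filled, between 1.46 and 3.33.

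Upstream sequence was taken for the genes that rose at day 6 and for which the RefSeq promoter table used here has an entry, namely Vim, Zeb2 and Cd44 (Twist1 also had an entry, and the remaining 5 genes did not). The 250 bases before the annotated start are shown 5′ to 3′ for each gene, on the strand of the gene in build GRCm38.p6: Vim at chr2:13574061-13574310 (plus strand), the most upstream start of Zeb2 at chr2:45117443-45117692 (minus strand) and Cd44 at chr2:102901666-102901915 (minus strand). Capitals mark TATAAA, the TATA box.
Vim: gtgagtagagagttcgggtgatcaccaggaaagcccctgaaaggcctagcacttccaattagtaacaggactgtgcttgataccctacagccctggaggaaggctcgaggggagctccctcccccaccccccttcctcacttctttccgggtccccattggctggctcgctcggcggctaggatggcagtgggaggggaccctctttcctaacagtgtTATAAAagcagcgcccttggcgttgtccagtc
Zeb2: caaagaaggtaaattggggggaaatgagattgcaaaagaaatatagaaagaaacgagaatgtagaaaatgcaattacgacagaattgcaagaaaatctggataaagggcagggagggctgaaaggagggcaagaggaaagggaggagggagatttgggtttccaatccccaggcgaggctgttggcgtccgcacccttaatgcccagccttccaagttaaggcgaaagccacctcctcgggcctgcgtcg
Cd44: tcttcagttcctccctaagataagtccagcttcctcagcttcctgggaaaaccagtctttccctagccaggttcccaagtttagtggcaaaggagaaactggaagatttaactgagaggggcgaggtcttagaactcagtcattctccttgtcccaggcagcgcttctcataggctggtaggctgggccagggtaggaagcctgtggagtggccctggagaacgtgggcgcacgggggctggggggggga
Both strands were searched for CACCTG (on the other strand CAGGTG), the E-box that Snail and Zeb proteins bind, for TATAAA (on the other strand TTTATA), and for TAATTA, a homeodomain core that reads the same on both strands. TATAAA was found in Vim, 32 bases before the start, and in Twist1, 126 bases before it, but not in the 4 Zeb2 windows or in Cd44. CACCTG and TAATTA were found in none of these windows. Among all 32851 promoter windows of 250 bases, 17.2% held CACCTG, 12.4% TATAAA and 4.84% TAATTA. A missing match says only that these letters are not in these windows.

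Fn1 encodes fibronectin, a matrix glycoprotein that cells bind through integrins and that gastrulating mesoderm needs for its migration. The gene lies on chromosome 1 (71585473 to 71653280, GRCm38.p6), and all 4 of its probes were tested. With ILMN_2595714, the brightest, wild-type day 5 cultures 1 to 4 had log2 intensities of 11.59, 11.49, 11.61 and 12.14, and null day 5 cultures 13.10, 12.20, 12.40 and 12.41. At day 6 the wild-type cultures had 10.77, 11.91, 11.74 and 11.21 and the null cultures 13.19, 12.67, 12.64 and 12.98. Every null culture was above every wild-type culture at both days, and null replicate 1 was the highest at each. The log2 fold change was 0.82 ± 0.26 (SE, adjusted p = 0.201 in limma) at day 5 and 1.46 ± 0.26 at day 6, where the adjusted p was 0.0139.

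The probes ILMN_1260125 and ILMN_2646618 gave the same order of genotypes. With ILMN_2646618, wild-type cultures were at 8.28, 8.05, 7.59 and 8.11 at day 5 and at 7.32, 8.12, 8.28 and 7.58 at day 6. The null cultures were at 10.17, 9.27, 9.02 and 9.15 at day 5 and at 10.31, 9.44, 9.29 and 9.84 at day 6. No null culture overlapped with a wild-type culture. The log2 fold change was 1.39 ± 0.30 (SE) at day 5, with an adjusted p of 0.0531 in limma, just over the threshold, and 1.90 ± 0.30 at day 6, with an adjusted p of 0.00776. With ILMN_1260125, wild-type cultures lay between 6.46 and 8.06 over both days and null cultures between 8.74 and 9.90, with log2 fold changes of 1.43 ± 0.34 (adjusted p = 0.0820) at day 5 and 1.96 ± 0.34 (adjusted p = 0.0133 in limma) at day 6.

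The fourth Fn1 probe, ILMN_2588227, was dim. It was above background in 0 of 8 wild-type cultures, in null day 5 replicates 1 (8.03) and 2 (7.28) and in null day 6 replicates 1 (7.70), 2 (6.93) and 4 (8.36). Its groups overlapped, and its log2 fold change at day 6 was 1.05 ± 0.47 with an adjusted p of 0.356 in limma. Against the background level of the wild-type arrays the day 6 null mean, with replicate 3 itself below background, was 1.09-fold higher. The other 3 Fn1 probes correlated with one another with r = 0.95 to 0.98 over the 16 arrays, and this probe with each of them with r = 0.66 to 0.75, a description over arrays that share group and scaling.

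Leaving out 1 culture at a time ended the day 6 call of ILMN_1260125 without wild-type day 6 replicate 4 (adjusted p = 0.0591) and of ILMN_2595714 without wild-type day 6 replicate 1 (0.0503) or 4 (0.0610). The call of ILMN_2646618 held in all 16 fits (adjusted p of at most 0.0375), and at day 5 this probe passed without wild-type day 5 replicate 1 (0.0425). Without the 2 cultures low in Lhx1, the 3 brighter probes had log2 fold changes of 2.12, 1.53 and 1.99 at day 6, with adjusted p of 0.0144, 0.0249 and 0.0125.

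**Figure D3:**
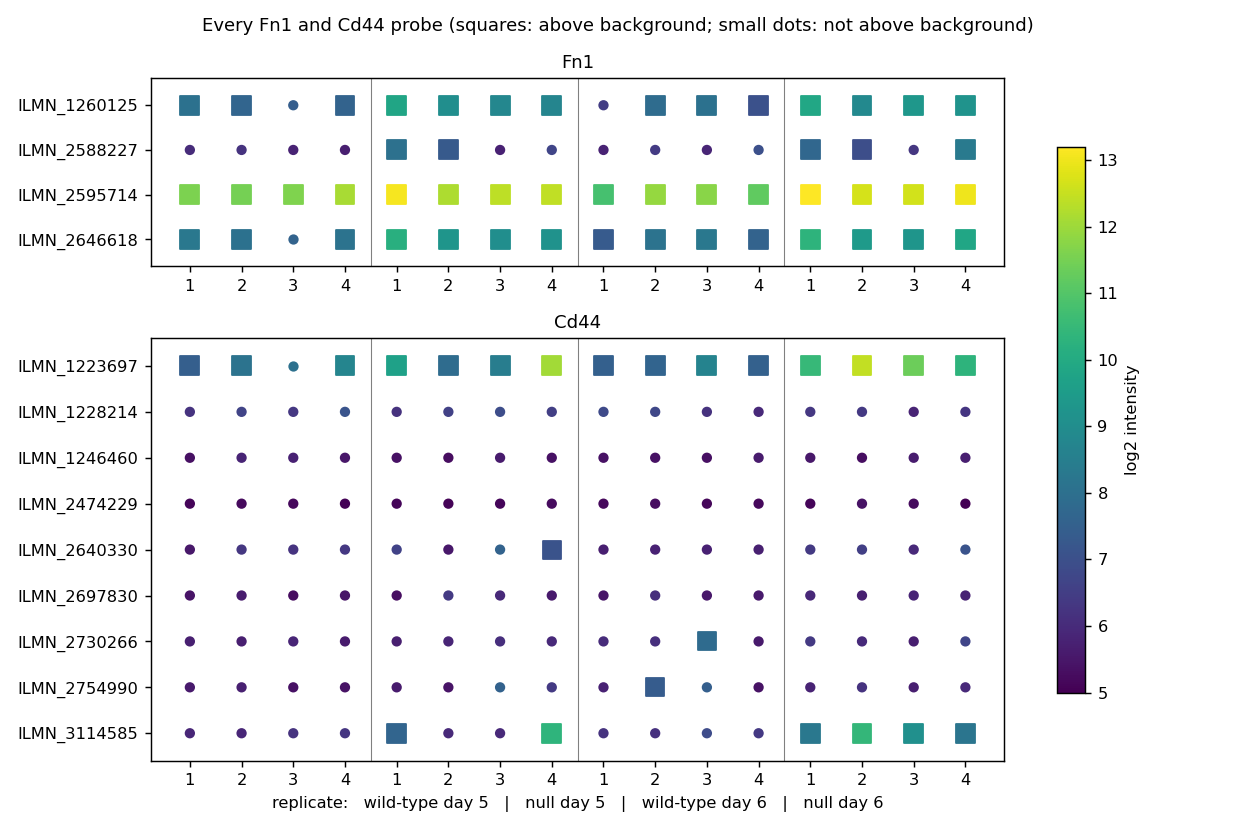
Log2 intensity (colour) of each of the 4 Fn1 probes and 9 Cd44 probes (rows) in each of the 16 cultures (columns, by group and replicate). Squares are values above background and small dots values that are not: 3 Fn1 probes were above background in 14 to 16 cultures, and 7 of the 9 Cd44 probes in 0 or 1.

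Cd44 encodes the main cell surface receptor for hyaluronan, and is a common marker of mesenchymal and of migrating cells. At day 6 one of its probes had the largest difference among the 13 tested probes. With that probe, ILMN_1223697, wild-type cultures 1 to 4 had log2 intensities of 7.44, 8.13, 8.04 and 8.74 at day 5 and 7.47, 7.62, 8.68 and 7.51 at day 6. The null cultures had 9.66, 7.88, 8.45 and 12.06 at day 5 and 10.51, 12.44, 11.34 and 10.31 at day 6. The groups overlapped at day 5, where null replicates 2 and 3 were within the wild-type range, and did not overlap at day 6. The log2 fold change was 1.42 ± 0.72 (SE, adjusted p = 0.482 in limma) at day 5 and 3.33 ± 0.72 (adjusted p = 0.0367) at day 6, a 10.1-fold difference.

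The second tested Cd44 probe, ILMN_3114585, was above background in 0 of 8 wild-type cultures, which lay between 5.88 and 6.88. The null cultures were at 7.65, 5.93, 5.96 and 10.34 at day 5, where replicates 1 and 4 were above background, and at 8.27, 10.42, 9.07 and 8.19 at day 6, where all 4 were. The day 6 difference was at least 3.45-fold, the null mean set against the lowest level that counts as above background on each wild-type array, a bound used below where a whole group was below background. The groups did not overlap at day 6, but the test did not pass (log2 fold change 2.59 ± 0.76, adjusted p = 0.115 in limma). The 2 tested probes correlated with r = 0.97 over the 16 arrays.

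The 7 other Cd44 probes gave no test. ILMN_1228214, ILMN_1246460, ILMN_2474229 and ILMN_2697830 were above background in 0 of 16 cultures. ILMN_2640330 was above background in null day 5 replicate 4, and ILMN_2730266 and ILMN_2754990 in 1 wild-type day 6 culture each. Which Cd44 transcripts each probe can read is not given in the files used here.

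The Cd44 call at day 6 depended on single cultures. It ended in 9 of the 16 fits that left out 1 culture: wild-type day 5 replicates 2 and 3, wild-type day 6 replicates 1, 3 and 4, and each of the 4 null day 6 replicates (adjusted p of 0.05001 to 0.127). The cultures null day 5 replicate 4 and null day 6 replicate 2 had the highest Cd44 values of all cultures with both probes. Without these 2 cultures the log2 fold change of ILMN_1223697 was 2.90 ± 0.45 at day 6 with an adjusted p of 0.00915 in limma, and the measured difference of ILMN_3114585 was 2.12 ± 0.38 with an adjusted p of 0.0164. The latter probe entered the test through null cultures alone, and as a bound its difference was at least 2.48-fold. At day 5 the values without them were 0.57 and 0.45, with adjusted p of 0.631 and 0.656.

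Cdh11 encodes cadherin 11, a cell adhesion protein of mesenchymal cells. The gene lies on chromosome 8 (102632095 to 102785493), and 2 of its 3 probes were tested. With ILMN_2737073, null cultures were at 9.14, 7.90, 6.52 and 7.49 at day 5 and at 9.26, 8.23, 9.03 and 9.10 at day 6. Of the wild-type cultures, only day 5 replicate 4 was above background (7.76), and the remaining 7 were at 6.11 to 7.05. At day 6 the null cultures were all above background and above every wild-type culture, at least 3.26-fold higher (measured log2 fold change 2.17 ± 0.45, adjusted p = 0.0293 in limma). With ILMN_1240529, 0 of 8 wild-type cultures were above background and the null cultures were at 9.28, 7.32, 6.04 and 8.09 at day 5 and at 9.13, 8.36, 9.19 and 8.997 at day 6. It was at least 3.29-fold higher at day 6 (measured log2 fold change 2.71 ± 0.47, adjusted p = 0.0133 in limma). Both Cdh11 probes entered the test only through null cultures, the group in which they were high.

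The difference of Cdh11 at day 5 was smaller in value, 0.74 and 0.83 on the log2 scale, with overlapping groups and adjusted p of 0.598 and 0.519. The change of the null effect from day 5 to day 6 was 1.97 ± 0.67 with ILMN_1240529, with an unadjusted p of 0.0102 in limma and an adjusted p of 1, so it did not pass. Both Cdh11 probes were low in null day 5 replicate 3 and high in null day 5 replicate 1. The call of ILMN_1240529 ended without wild-type day 6 replicate 4 (adjusted p = 0.0586). The call of ILMN_2737073 ended without wild-type day 6 replicate 1, 3 or 4 or null day 6 replicate 1, 3 or 4 (0.0723 to 0.0921). The third probe, ILMN_2751663, was above background in 0 of 16 cultures.

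Cdh2 encodes N-cadherin, the adhesion protein that replaces E-cadherin in many mesenchymal and neural cells. Neither of its 2 probes was tested. ILMN_1216390 was above background in 3 of 16 cultures, null day 5 replicates 2 (6.82) and 4 (7.25) and wild-type day 6 replicate 2 (6.92), and ILMN_2605503 in null day 6 replicate 1 alone (7.21). No difference in Cdh2 was detectable at this signal.

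Vim encodes vimentin, the intermediate filament protein of mesenchymal cells. It was bright in every culture with ILMN_2451022. Wild-type cultures were at 12.10, 11.47, 12.70 and 11.94 at day 5 and at 11.59, 12.57, 11.87 and 11.59 at day 6. Null cultures were at 13.09, 12.30, 12.17 and 13.56 at day 5 and at 13.05, 13.97, 13.67 and 13.08 at day 6. The groups overlapped at day 5 and did not at day 6. The log2 fold change was 0.73 ± 0.35 (SE, adjusted p = 0.453 in limma) at day 5 and 1.54 ± 0.35 (adjusted p = 0.0467) at day 6, close to the threshold. The second Vim probe, ILMN_1232980, was above background in 0 of 16 cultures.

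Zeb2, a zinc finger and homeobox repressor of epithelial genes, had 1 probe above background of 5. With ILMN_1232121, wild-type cultures were at 8.45, 7.93, 7.96 and 7.49 at day 5 and at 7.30, 8.95, 7.67 and 7.84 at day 6. Null cultures were at 9.62, 8.35, 8.55 and 10.22 at day 5 and at 9.33, 9.97, 9.54 and 10.40 at day 6. At day 6 no culture overlapped, and at day 5 null replicate 2 fell below wild-type replicate 1. The log2 fold change was 1.23 ± 0.43 (adjusted p = 0.253 in limma) at day 5 and 1.87 ± 0.43 (adjusted p = 0.0465) at day 6. The calls of Vim and Zeb2 at day 6 were the nearest to the threshold and ended in 11 and 10 of the 16 fits without 1 culture (adjusted p of 0.0516 to 0.162 and of 0.0555 to 0.168). For both genes these fits included each null day 6 culture, wild-type day 6 replicates 1, 3 and 4, wild-type day 5 replicate 2 and null day 5 replicate 1. Wild-type day 5 replicates 1 and 4 ended the call of Vim alone, and wild-type day 5 replicate 3 that of Zeb2 alone. Without the 2 cultures low in Lhx1 the values were 1.36 (adjusted p = 0.0684) for Vim and 1.81 (0.0540) for Zeb2.

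Zeb1, the paralogue of Zeb2, was above background in every culture with ILMN_2492500. Wild-type cultures were at 7.92, 7.48, 9.04 and 8.74 at day 5 and at 7.87, 8.85, 8.04 and 7.07 at day 6. Null cultures gave 9.69, 8.89, 8.46 and 11.13 at day 5 and 9.52, 11.26, 10.05 and 9.51 at day 6. The day 6 groups did not overlap, but the test did not pass (log2 fold change 2.13 ± 0.57, adjusted p = 0.0871 in limma), and at day 5 the groups overlapped (1.25 ± 0.57, adjusted p = 0.429). The day 6 difference passed without null day 5 replicate 4 (adjusted p = 0.0423). Without both cultures low in Lhx1, which had the highest Zeb1 values, the log2 fold change was 0.72 (adjusted p = 0.543) at day 5 and 1.73 (adjusted p = 0.0822 in limma) at day 6. The second Zeb1 probe, ILMN_1251561, was above background in 1 culture, null day 5 replicate 4.

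Snai2, or Slug, is a Snail family repressor that marks migrating mesoderm and neural crest. Its single probe, ILMN_2647563, was above background in 0 of 8 wild-type cultures (5.47 to 7.32). Null cultures were at 7.76, 5.78, 5.99 and 11.11 at day 5 and at 7.38, 11.47, 8.94 and 6.195 at day 6, and 5 of the 8 were above background. Null replicates 2 and 3 at day 5 and replicate 4 at day 6 were within the wild-type range. Against the background level of the wild-type arrays the null means were 1.17-fold higher at day 5 and 2.45-fold higher at day 6. These means include null cultures that were below background, so these folds are not lower bounds. The measured log2 differences were 1.54 ± 1.11 (adjusted p = 0.659) and 2.44 ± 1.11 (adjusted p = 0.364 in limma) and did not pass. Without the 2 cultures low in Lhx1, which had its highest values, the measured differences were 0.39 and 1.45. Against background the day 6 null mean was then 1.23-fold higher, and no fold above background was left at day 5.

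Twist1, a basic helix-loop-helix factor of head mesenchyme and mesoderm, was above background in every culture with its single probe, ILMN_1236188. Wild-type cultures were at 9.21, 8.70, 9.15 and 9.26 at day 5 and at 7.98, 9.44, 8.83 and 8.60 at day 6. Null cultures were at 9.67, 9.48, 9.04 and 11.36 at day 5 and at 9.08, 11.19, 10.15 and 8.48 at day 6. Cultures of the 2 genotypes overlapped on both days, and the log2 fold changes were 0.81 ± 0.55 (adjusted p = 0.633) and 1.01 ± 0.55 (adjusted p = 0.476 in limma). Without the 2 cultures these were 0.32 and 0.52.

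**Figure D4:**
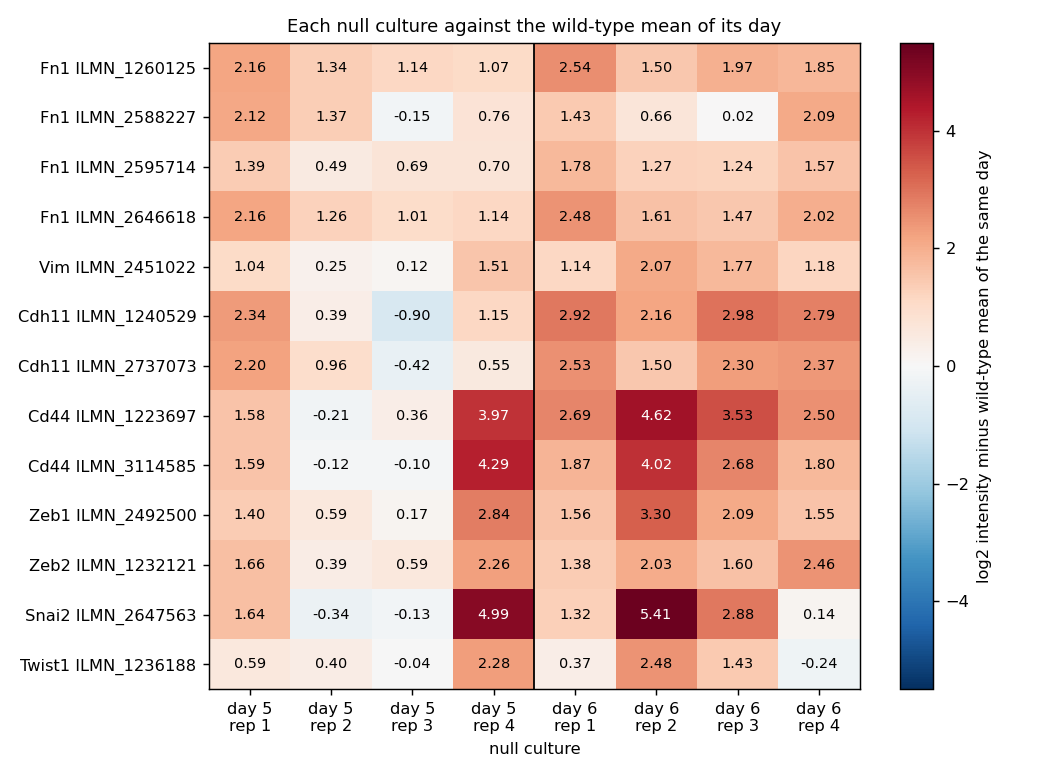
Log2 intensity of each null culture minus the wild-type mean of the same day (colour and printed value) for the 13 tested probes (rows). The columns of day 5 replicate 4 and day 6 replicate 2 hold the highest values for Cd44, Zeb1, Snai2 and Twist1, up to 4.62 for Cd44 probe ILMN_1223697 (values of Snai2, which run higher, are measured against wild-type cultures below background), and day 5 replicate 3 lies between -0.90 and 1.14.

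The members thus differed in which null cultures were high. For 5 of the 13 probes (Zeb1, Snai2, Twist1 and both Cd44 probes), both cultures low in Lhx1 (null day 5 replicate 4 and null day 6 replicate 2) exceeded the 6 remaining null cultures. For the 3 brighter Fn1 probes, the 6 other null cultures were all above all 8 wild-type cultures, and for Cdh11 5 of these 6 were. After removal of group means, deviations of the brightest probes over the 16 arrays correlated with r = 0.92 between Snai2 and Cd44, 0.91 between Vim and Zeb1 and 0.89 between Snai2 and Twist1. The same measure was 0.01 between Fn1 and Snai2, 0.47 between Fn1 and Cdh11 and -0.09 between Vim and Cdh11. These correlations describe arrays that share groups and scaling. Over the 14 arrays that remain without the 2 cultures low in Lhx1, they were 0.78 between Snai2 and Cd44, 0.87 between Vim and Zeb1 and 0.64 between Snai2 and Twist1. Over the same 14 arrays they were 0.37 between Fn1 and Snai2, 0.44 between Fn1 and Cdh11 and 0.11 between Vim and Cdh11. Without those 2 cultures 7 of the 13 probes passed at day 6 and 0 at day 5, where 1.49% and 0.378% of all probes passed, and the median log2 fold change was 1.81 and 0.72.

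**Figure D5:**
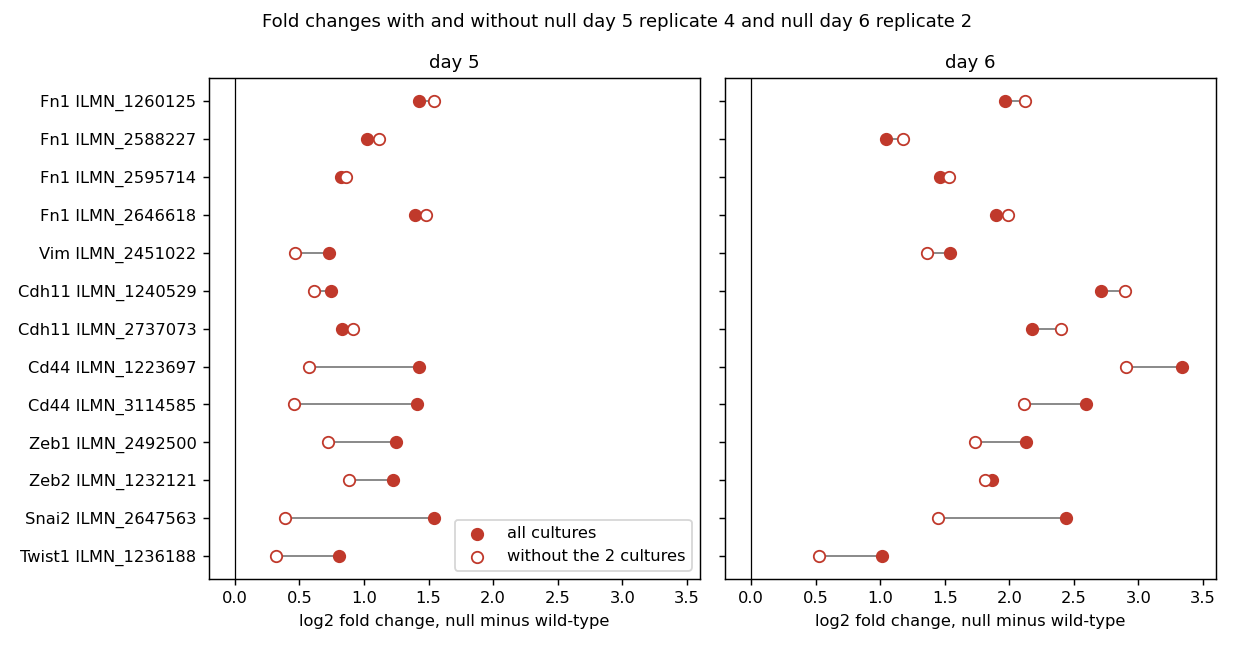
Log2 fold change of null over wild-type cultures (horizontal axes) for the 13 tested probes at day 5 and day 6, with all cultures (filled) and without null day 5 replicate 4 and null day 6 replicate 2 (open). Without them the Zeb1 value went from 2.13 to 1.73 at day 6 and that of Fn1 probe ILMN_1260125 from 1.96 to 2.12.

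The null effect was larger in value at day 6 than at day 5 for all 13 probes, by a median of 0.81 on the log2 scale. Over all probes 49.3% had a change above 0, with a median of -0.0039. The member probes are not independent, as 4 of the 13 read Fn1, and 4 were above background in null cultures alone. This change of the null effect did not pass for any of the 13, and 0% of all probes passed. Before adjustment, 1 of the 13 was under 0.05 in limma and 147 of 15593 probes. From day 5 to day 6, 0 of the 13 passed in wild-type cultures (median -0.21, none under 0.05 before adjustment) and 0 in null cultures (median 0.62, with 3 under 0.05 before adjustment, namely the 2 Cdh11 probes and Cd44 ILMN_1223697). Over all probes 0% passed in each of these comparisons, and 219 and 610 probes were under 0.05 before adjustment.

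The genes whose brightest probes followed the members most closely over the 16 arrays, of 8944 genes, were Bmp4 (r = 0.94) and Rgs5 (0.92) for Fn1, and Zeb1 and Mras (both 0.95) for Vim. For Zeb1 they were Mras and Vim (both 0.95), and for Zeb2 Cep170 (0.93) and Cygb (0.92). Cdh11 was followed by Rmdn2 and Itga9 (both 0.88), Snai2 by Prr33 and Unc5c (both 0.96), Twist1 by Ccdc85b (0.93) and Tbx4 (0.92), and Cd44 by Twist2 (0.96) and Frmd6 (0.95). These pairs had r = 0.74 to 0.95 over the 14 arrays without the 2 cultures low in Lhx1, lowest for Twist1 with Tbx4 (0.74) and Ccdc85b (0.80) and for Snai2 with Prr33 (0.85). Twist2, a close relative of Twist1, was above background in 0 of 4 wild-type day 6 cultures and at day 6 its null mean exceeded that bound at least 5.94-fold, but its test did not pass (adjusted p = 0.0758).

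Other EMT genes were read from 7 lists by the brightest probe of each gene. Of 20 epithelial genes that cells lose in EMT, 17 were measured, and 16 of the 17 were lower on average in null cultures at each day, with a median log2 fold change of -0.96 at day 5 and -0.97 at day 6, where the medians of all 8948 genes were 0.0038 and -0.0022. Ovol2, a zinc finger factor that holds cells epithelial, had wild-type means of 10.14 ± 0.44 (SD, n = 4) at day 5 and 10.51 ± 0.56 at day 6 and null means of 8.56 ± 0.36 and 8.75 ± 0.50, and fell at both days (log2 fold change -1.58, adjusted p = 0.0472, and -1.77, adjusted p = 0.0139 in limma). Spint1, an inhibitor of epithelial surface proteases, had day 6 means of 13.35 ± 0.54 (wild-type) and 11.78 ± 0.32 (null) and fell at that day (-1.57, adjusted p = 0.0385). These were the 2 genes of the list that passed, 1 at day 5 and 2 at day 6, where 0.410% and 1.24% of all 15593 probes passed. Of the 17 genes, 9 at day 5 and 8 at day 6 were under 0.05 before adjustment, beside 1075 and 1283 of all 8948 genes. Cdh1 (E-cadherin), the target that Snail and Zeb factors are best known to repress, had differences of -0.96 and -1.17, which did not pass (adjusted p = 0.505 and 0.335). Without the 2 cultures low in Lhx1 the adjusted p of Ovol2 was 0.0698 at day 5 and 0.0250 at day 6, and that of Spint1 at day 6 was 0.0822. Leaving out 1 culture ended the call of Ovol2 in 12 of 16 fits at day 5 and 3 at day 6, and that of Spint1 in 8. With replicate number as a block the adjusted p of Ovol2 was 0.0909 at day 5 and that of Spint1 was 0.0789 at day 6, or 0.0587 with a block made within each day.

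In the other 6 lists, with 52 genes measured, 0 passed at either day in limma, and 4 at day 5 and 10 at day 6 were under 0.05 before adjustment, where 1075 and 1283 of all 8948 genes were. The values that follow are log2 fold changes of null over wild-type cultures at days 5 and 6. Of 13 EMT transcription factor genes that are no members, 10 were measured, 5 of them higher in value in null cultures at day 5 and 7 at day 6. The brightest were Tcf4 (0.09 and 0.12) and Sox9 (-0.17 and 0.44). Snai1, the Snail gene of the primitive streak, had 1.74 ± 0.48 and 1.84 ± 0.48 (SE) with adjusted p of 0.1297 and 0.0780 in limma. Snai3, of the same family, went the other way, with -1.12 ± 0.51 and -1.72 ± 0.51 (adjusted p of 0.426 and 0.118 in limma). Of the matrix receptors and focal adhesion proteins, 9 of 13 were measured, with Ilk (0.03 and 0.24) and Vcl (0.11 and 0.17) the brightest. Itga9 (0.33 and 1.62) and Itgb5 (0.31 and 0.56) were under 0.05 before adjustment at day 6. Of the hyaluronan enzymes and CD44 partners, 7 of 13 were measured, with Hyal2 (-0.08 and -0.04) and Mmp14 (-0.41 and -0.03) the brightest. At day 6, 4 of these 7 were under 0.05 before adjustment. They were Has2 (0.39 and 1.18), Msn (0.86 and 1.07), Mmp9 (0.87 and 1.47) and, in the other direction, Hyal1 (-0.51 and -1.08). The mesenchymal cytoskeleton list had 10 of 13 genes measured (the actin-binding Tpm1 at 0.53 and 0.92 and Tagln2 at -0.09 and 0.06). The TGF-beta list had 8 of 13 (the receptor Tgfbr1 at -0.17 and 0.04 and the repressor Skil at -0.28 and -0.39). The cadherins and catenins had 8 of 13 (Ctnna1 at -0.17 and 0.03 and Ctnnb1 at -0.09 and -0.34).

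Markers of other cell types were read beside the members. Of 10 markers of lateral plate and extraembryonic mesoderm, 7 were measured, and Hand1, Hand2 and Msx2 were above background in 2, 1 and 0 of 16 cultures. Bmp4, Msx1, Tbx3 and Pmp22 rose at day 6 (log2 fold changes 3.51, 2.68, 2.59 and 3.63). Their adjusted p were 0.0083, 0.0070, 0.0043 and 0.0028 in limma, where 1.24% of all 15593 probes passed. Foxf1, Tbx20 and Ahnak did not pass (0.0941, 0.667 and 0.444). At day 5 only Pmp22 passed (0.0353), where 0.410% of all probes did. The summed linear intensity of the 7 was 3734 to 7720 (wild-type) and 27250 to 35737 (null) at day 6, and 3945 to 7397 and 10395 to 39720 at day 5. Of 10 fibroblast and feeder markers, 2 were measured (Thy1 and Acta2, neither called), and Col1a1, Col1a2 and Col3a1 were above background in 1 or 2 of 16 cultures. The sum of the 2 was 22390 in null day 5 replicate 4 and 30878 in null day 6 replicate 2. The remaining 6 null cultures had sums of 892 to 3173, and wild-type cultures of 589 to 17551. The high sums came from Acta2, which is also in the mesenchymal cytoskeleton list. Its group means were 10.40 to 12.33 on the log2 scale, and those of Thy1 were 6.45 to 7.64. The sums thus rest on 1 gene. Of the blood and endothelium, parietal and visceral endoderm, pluripotent and neural lists, 4 of 9, 7 of 11, 7 of 8 and 1 of 7 genes were measured, 19 in all, and 0 passed in limma at either day, with 2 at day 5 and 3 at day 6 under 0.05 before adjustment (again beside 1075 and 1283 of 8948 genes). The part of such cells in the member results was not tested.

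The cultures also differed in Eif2s3y, a gene of the Y chromosome, which had log2 intensities of 7.77 to 10.03 in wild-type cultures. Null cultures 1 to 4 had 9.25, 5.28, 6.33 and 5.82 at day 5 and 8.93, 8.59, 5.25 and 5.47 at day 6. The low values, 5.25 to 6.33, were in null cultures alone, so Eif2s3y and genotype cannot be fully told apart. Null day 6 replicates 3 and 4, whose labels conflict, were both low. With Eif2s3y intensity as a covariate 3 of the 13 member probes passed at day 6, namely Fn1 ILMN_1260125 and ILMN_2646618 and Cdh11 ILMN_1240529. Over all 15593 probes 72 did.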

How the data were processed

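RNA of 16 cultures was profiled on Illumina Mouse WG-6 v2 BeadChips. The authors deposited linear probe intensities, neither normalized nor background-subtracted, each with a detection p-value from GenomeStudio, of which the version is not given in the sources used here. A second deposited table holds intensities after rank invariant normalization and served as an alternative. Both deposited tables were used through the labelled columns, with 0 columns left out.

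In R 4.3.3 with limma 3.58.1, the first table was background-corrected and quantile-normalized with neqc (offset 16, negative controls inferred from detection p-values), which gave log2 intensities. The filter required 4 or more arrays on which the detection p was under 0.01. From the 4 group means limma estimated 5 comparisons, with Benjamini-Hochberg adjustment over 15593 probes and a threshold of 0.05. Of 45281 probes, 34885 carry 1 symbol in the platform annotation, 18 several and 10378 none. Promoter windows, gene positions and the 250 bases before each start are from RefSeq on GRCm38.p6.

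Same-numbered wild-type and null cultures had deviations from group means that correlated with r = 0.16 to 0.37 at day 5 and -0.04 to 0.46 at day 6, and same-numbered cultures of 1 genotype at the 2 days with -0.45 to 0.11 (wild-type) and -0.31 to 0.38 (null). Only the day 5 numbers deviated together in every pair. No member passed at day 5 with or without a block, so that day cannot show what a block changes, and at day 6 a block gave 5 member calls in place of 8. The labels state no pairing, and the model has no replicate block. Null day 5 replicate 4 and null day 6 replicate 2 had r = 0.66, the highest of the pairs compared. Their log2 intensities of the Y chromosome gene Eif2s3y were 5.82 and 8.59. Whether they came from 1 line was not tested. Alternatives were the background correction, the offset, rank invariant scaling, the filter, the brightest probe per symbol, a replicate block, a fit within 1 day, array weights, an Eif2s3y covariate and the omission of single or paired cultures.

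The text names all members with every probe, the called genes of each list (up to 4, or its 2 brightest if none was called) and the 2 genes most alike to each member. Further genes (Cdh1, Snai1, Snai3, Twist2, Itga9, Itgb5, Has2, Msn, Mmp9, Hyal1, Eif2s3y and the cell type markers) were named after their values were seen. The members, lists and alternatives were chosen with earlier results of these data known.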

Additional observations from a re-analysis of the deposited data

Results flagged for a closer look

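With Cd44 probe ILMN_1223697, wild-type day 6 replicate 3 (8.68 on the log2 scale) lay far from the other 3 cultures of its group (7.47 to 7.62), by 0.88 of the range of the group. Of 52 groups examined in this way for the 13 tested probes, 1 stood out, where chance picks about 1 in 20. Of the untested probes, 4 gave a signal above background in null cultures and in 0 wild-type cultures of the same day, namely Zeb1 ILMN_1251561 in 1 null day 5 culture, Cdh2 ILMN_1216390 in 2 null day 5 cultures, Cdh2 ILMN_2605503 in 1 null day 6 culture and Cd44 ILMN_2640330 in 1 null day 5 culture. The opposite order, with 1 wild-type culture and 0 null cultures above background, was seen at day 6 for Cd44 ILMN_2730266, Cd44 ILMN_2754990 and again Cdh2 ILMN_1216390. Their causes were not tested.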

How the results depend on the processing

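Of the 13 member probes, 8 passed at day 6 (194 of all 15593 probes) and 0 at day 5. The day 6 count was 4 of 29 with no filter on dim probes (104 of 45281 overall), 1 of 4 with probes above background on all 16 arrays (58 of 9585), and 5 of 8 with the brightest probe per symbol (172 of 10938), settings that change how many probes are tested. It was 0 without the 2 null day 6 cultures described alike, which leaves 2 null cultures at that day (9 of all probes), 3 with Eif2s3y as a covariate (72) and 10 with array weights (1437). The replicate block gave 5 (117), and a block made separately for each day 7 (228). The block ended the calls of Vim (adjusted p = 0.101), Zeb2 (0.0848) and Cd44 ILMN_1223697 (0.0772), and the block by day ended those of Fn1 ILMN_2595714 (0.0537) and Zeb2 (0.0551) and let Zeb1 pass (0.0488). Over all probes at day 5 the count was 64 with no block, 26 with it and 88 within days. Leaving out 1 culture gave 1 to 10 calls at day 6 and 0 to 1 at day 5. No fold change of a member probe reversed in any setting: of 310 values, 277 kept their direction and side of the threshold, 28 lost the call and 5 gained it, and of 416 values without 1 culture these were 373, 40 and 3. Apart from the settings that change the probes tested or leave out cultures, the cause of a changed call was not tested. Probes near background, those of Cdh2 above all, limit what the arrays can show.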
